A study of Drosophila melanogaster with 12 samples.

Results

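The stretch of chromosome arm 3L from 2 to 7 Mb (Drosophila melanogaster, build dm3) was examined in 8 peak lists of 2 linker histones. Its members were all peaks on 3L whose midpoint lay from 2 Mb up to, but not including, 7 Mb. They numbered 1170 of the 19365 peaks in all 8 lists. The H1 lists of control cells held 287 and 251 of them, and those of induced cells 233 and 233. Members in dBigH1 lists were fewer, with 20 and 42 for control and 49 and 55 for induced cells. Positions below are counted from 1 on dm3, and pairs of values are for replicate 1 and replicate 2.

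Linker histones bind the nucleosome where DNA enters and leaves it, contact the DNA between nucleosomes, and help chromatin to fold. H1 is the linker histone of somatic cells of the fly. dBigH1 is a longer linker histone that packages the chromatin of the early embryo until the zygotic genome becomes active, and it is also found in the germline. S2 cells, a line derived from late fly embryos, have the somatic type of chromatin, so dBigH1 made in them enters chromatin that already carries H1.

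The study immunoprecipitated sonicated chromatin of S2 cells and sequenced the DNA (ChIP-seq), and its 12 samples formed 6 groups of 2 replicates. Control cells carried the label wt, and induced cells the label wt BigH1 with an induction at 1 mM. Polyclonal antibodies against dBigH1 and against H1 were used on each, beside an input, and the 4 inputs were not analysed here. The growth protocol describes lines with FLAG-tagged dBigH1 kept under hygromycin, and copper sulphate for 24 h is given as the treatment. Both are worded alike for all samples, so they do not tell which of these applied to control cells. Nothing says whether replicates came from separate cultures, so the spread between them may be technical. The level of dBigH1 in either kind of cell was not measured here, and "dBigH1 peak" means a peak called with that antibody.

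A peak is a place where reads stood above local background in the authors' calling, and its score rises as the caller's p-value falls. The lists hold no read counts. The depth behind a peak is therefore unknown, and the number of peaks in a list depends on depth as well as on the protein. The stretch was chosen because it held many dBigH1 peaks of induced cells, so the number and covered length of dBigH1 peaks are given as a description with no test. The limits of the stretch were placed at whole Mb. On the tip side, the 1 Mb window just outside held 2 and 3 dBigH1 peaks of control and 3 and 2 of induced cells, and the first window inside held 2 and 6 against 9 and 10. On the centromere side, the last 1 Mb window inside held 3 and 3 against 5 and 7, and the window just outside held 3 and 2 against 0 and 0.

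H1 peaks set the landscape of the stretch. It held both dense and empty windows, and several of each kind lay side by side. Of the 50 windows of 100 kb, 12 held 5 or more H1 peaks in every H1 library, 10 held 1 or none in every H1 library, and the other 28 were of neither kind. Single windows could differ between conditions: 2.2 to 2.3 Mb held 9 and 2 H1 peaks in the control lists and 0 and 0 in the induced ones. The window from 4.5 to 4.6 Mb was the densest, with 15 and 16 H1 peaks against 14 and 12 (control against induced cells). The window from 6.0 to 6.1 Mb followed, with 14 and 13 against 15 and 13. Then came 5.2 to 5.3 Mb, with 12 and 15 against 12 and 10, and 5.4 to 5.5 Mb, with 12 and 14 against 12 and 8. The windows starting at 2.9 and 4.4 Mb tied for the next place. No H1 peak of any library had its midpoint in 7 windows, which start at 2.4, 2.5, 3.3, 4.9, 6.6, 6.7 and 6.8 Mb. Across the 50 windows, H1 peak numbers of control and induced cells had a Pearson r of 0.81 and 0.80 within a replicate number, close to the 0.79 and 0.83 between replicates of control and of induced cells. These correlations describe the windows and carry no test.

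**Figure D1:**
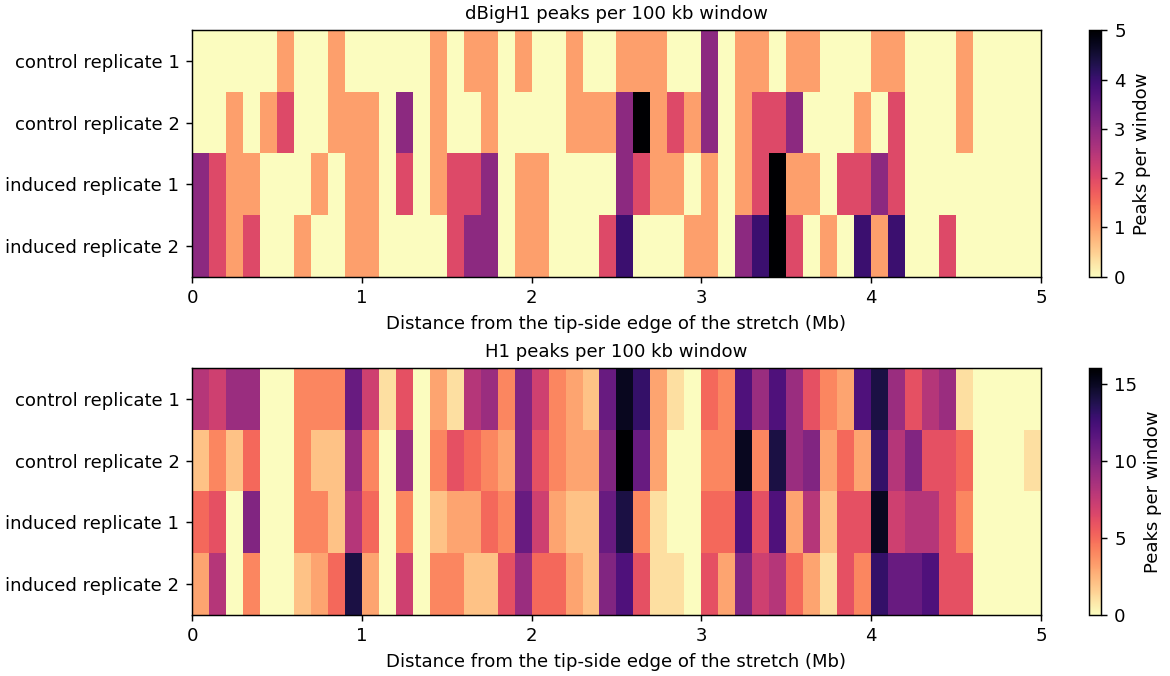
Peaks per 100 kb window (colour) along the stretch, by distance from its tip-side edge in Mb, with 1 row per library and the dBigH1 lists above the H1 lists. Each panel has its own colour scale, up to 5 peaks for dBigH1 and 16 for H1. In the H1 panel, 12 windows held 5 or more peaks and 10 held 1 or none in all 4 rows, and the other 28 were of neither kind. The window 3.4 Mb from the edge held 5 dBigH1 peaks in each induced library.

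The gaps between H1 peaks were of very unequal length. The median gap was 2046 and 2141 bp in control lists and 3483 and 2554 bp in induced lists, and 30.5 to 41.3% of gaps were shorter than 1 kb. Yet gaps of 20 kb or more, which numbered 42 to 47 in each list, took up 59.5 and 63.3% of the stretch in control and 66.6 and 65.4% in induced cells. Joining H1 peaks closer than 1000 bp gave 168 and 148 stretches in control and 162 and 142 in induced cells, the longest 24.4 and 31.8 kb in control and 25.8 and 26.8 kb in induced cells. With the 4 H1 lists merged, H1 peaks covered 36.5% of the stretch, and 5 gaps were longer than 100 kb. The widest, 3L 6584265 to 6940049 (356 kb), and the fourth, 3L 3298111 to 3475735 (178 kb), held no dBigH1 peak of any library. The gap at 3L 2387642 to 2665990 (278 kb) held 1 and 3 dBigH1 peaks of control cells and none of induced cells. The gap at 3L 4850097 to 5030356 (180 kb) held 1 and 3 of control and 1 and 1 of induced cells, and the gap at 3L 3114619 to 3252349 (138 kb) held 0 and 2 of control and none of induced cells.

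The dBigH1 lists of induced cells gathered in this stretch. It held 25% (95% interval 19.1 to 31.7) and 23.1% (17.9 to 29.0) of all dBigH1 peaks of induced cells, and 3.34% (2.05 to 5.11) and 5.84% (4.24 to 7.81) of those of control cells. The intervals are exact binomial (Clopper-Pearson) and cover counting error only. Since the stretch was chosen for its induced dBigH1 peaks, these shares and their intervals are a description and test no contrast. Covered length was 58.6 and 118 kb in control and 181 and 222 kb in induced cells. The induced libraries lay above the control libraries in both measures, with a log2 ratio of 0.84 for peak number and 1.27 for covered length. The control libraries differed widely from each other, and the log2 ratio of peak number was 1.29 in replicate 1 and 0.39 in replicate 2.

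Within the stretch, the dBigH1 peaks of induced cells were unevenly spread. Both induced libraries had a dBigH1 peak in 20 of the 50 windows, and neither had one in 17. The window from 5.4 to 5.5 Mb held the most, 5 and 5, against 0 and 2 in control cells. The windows from 2.0 to 2.1 and from 3.7 to 3.8 Mb each held 3 and 3, against 0 and 0 and against 1 and 1 in control cells. The window from 4.5 to 4.6 Mb held 3 and 4 against 1 and 3. Those starting at 5.3 and 6.1 Mb each held 2 and 4 against 1 and 2, and the one at 5.9 Mb held 2 and 4 against 0 and 1. In 9 windows every induced library had more dBigH1 peaks than every control library (over all 100 kb windows of 2L, 2R, 3L, 3R and X, this was so in 1.86%), and in 5 windows fewer (21.9% over those windows). The choice of the stretch rests on this contrast, so these counts are a description. Across windows, the 2 induced libraries had a Pearson r of 0.70 and the 2 control libraries 0.49.

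The 12 windows dense in H1 made up 24% of all windows and held a larger share of the dBigH1 peaks of induced cells, 34.7% and 43.6% (17 of 49 and 24 of 55). Of the dBigH1 peaks of control cells they held 25% and 23.8% (5 of 20 and 10 of 42). The 10 windows nearly free of H1 held 1 and 1 of induced cells, and 1 and 6 of control cells. The 28 windows in between held the remaining 31 and 30 of induced and 14 and 26 of control cells. Per library, dBigH1 and H1 peak numbers over the 50 windows had a Pearson r of 0.52 and 0.35 in induced and 0.22 and 0.34 in control cells. Dense H1 windows did not always carry dBigH1: from 6.2 to 6.4 Mb, where each H1 list had 6 to 12 peaks per window, no dBigH1 list had a peak.

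In width, the dBigH1 peaks of the 2 conditions differed. Their median width was 2242 and 2287 bp in control and 3130 and 3733 bp in induced cells, and both induced libraries lay above both control libraries. The difference was 0.59 on the log2 scale (exact two-sided permutation p = 0.333, the lowest value open to 2 libraries against 2). No test between the conditions here can therefore pass 0.05. The widest dBigH1 peaks were 8472 and 8137 bp in control and 8553 and 8625 bp in induced cells, so the upper ends of the ranges were close. H1 peaks had a median width of 3728 and 3619 bp in control and 3346 and 3699 bp in induced cells. They were wider than H1 peaks elsewhere in the same lists, whose medians ranged from 2080 to 2323 bp. dBigH1 peaks elsewhere also had lower medians, at 1608 and 1507 bp in control and 2432 and 2804 bp in induced cells. Such width was not found here alone: on 2L from 14 to 19 Mb, dBigH1 medians were 2630 and 2170 bp in control and 3822 and 3940 bp in induced cells, the latter above those of this stretch.

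**Figure D2:**
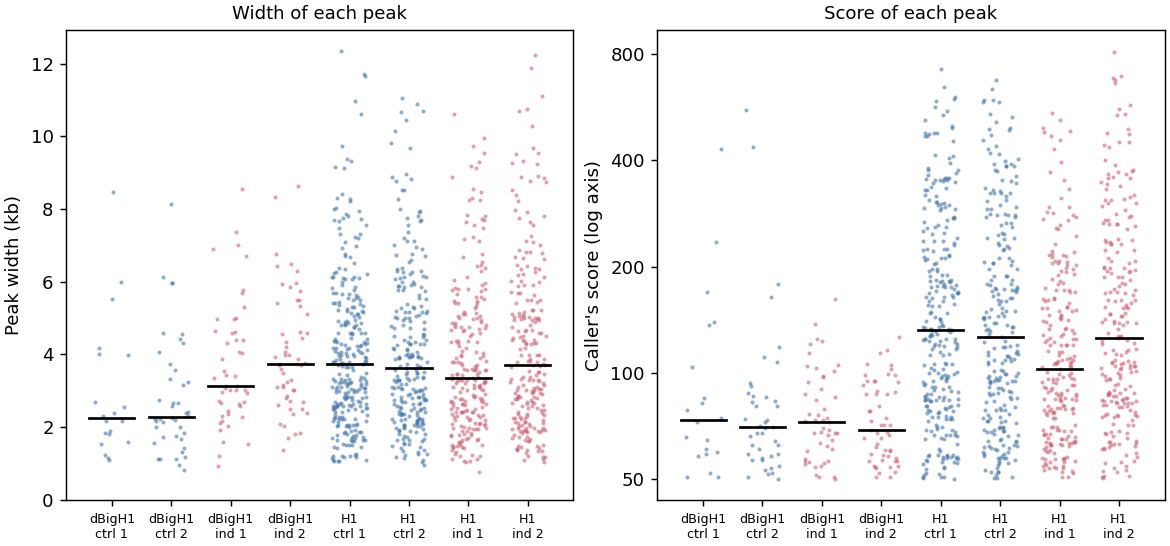
Width in kb (left) and caller's score on a log axis (right) of every peak of the stretch, with 1 column of points per library and a black line at the median. Median widths of dBigH1 peaks were 2242 and 2287 bp in control (ctrl, blue) and 3130 and 3733 bp in induced cells (ind, red), and the highest dBigH1 scores, 431 and 555, were in control lists. Scores are not normalized between libraries.

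Most dBigH1 scores were close to the lowest score of any list, 50. The median was 73.3 and 69.9 in control and 72.2 and 68.6 in induced cells, and 6 and 7 peaks of control and 10 and 6 peaks of induced cells reached 100. A score can be read only within its own list. Among the induced lists, 36.7% and 25.5% of the members ranked in the top 25% of their list, against 15.0% and 9.52% in the control lists. The leading peak of the first induced library, 3L 3735757 to 3743124 (score 162), ranked 2 of 196 and lay wholly under an H1 peak of the same replicate. It was not found in the other induced library. The leading peak of the second induced library, 3L 3589910 to 3593908 (score 126), ranked 15 of 238, had 95.4% of its length under H1 and was found in both. Among the 5 leading peaks of each induced list, those ranked 8 and 11 of 196 and 21 and 31 of 238 lay outside H1 peaks. The others had 95.4% or more of their length under H1. The leading peaks of control cells, 3L 4622998 to 4625383 (score 431, rank 33 of 599) and 3L 4239049 to 4240813 (score 555, rank 26 of 719), lay outside H1 peaks, and each was found in both control libraries. The 5 leading peaks of each control list all lay outside H1 peaks.

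The position of dBigH1 against H1 was the next question. In induced cells 32 of 49 and 30 of 55 dBigH1 peaks shared 1 bp or more with H1 of the matching list (own condition and replicate number), which is 65.3% (95% interval 50.4 to 78.3) and 54.5% (40.6 to 68.0). In control cells 8 of 20 and 17 of 42 did, which is 40.0% (19.1 to 63.9) and 40.5% (25.6 to 56.7). Means were 59.9 ± 7.61% for induced and 40.2 ± 0.337% for control libraries (SD, n = 2). They lay 19.7 percentage points apart, more than the spread between replicates (exact two-sided permutation p = 0.333, the smallest possible). It was 25.3 points in replicate 1 and 14.1 in replicate 2. Outside the stretch, the same lists gave 53.1% and 59.6% for induced and 15.0% and 22.5% for control libraries. The induced share here was thus close to that elsewhere, and the conditions lay farther apart elsewhere. Whether the stretch differs from the rest was not tested. Induced dBigH1 peaks were also the wider ones, and the part of width in this overlap was not tested. The next measure uses only the midpoint of each dBigH1 peak, and peaks of like width were not compared.

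The midpoint of a dBigH1 peak lay inside an H1 peak in 65.3% and 47.3% of cases in induced cells and in 40.0% and 38.1% in control cells. H1 peaks of the same lists covered 18.0% and 19.7% of the stretch in induced and 23.5% and 20.8% in control cells. The share of midpoints was therefore 47.3 and 27.5 points above the covered share in induced cells, and 16.5 and 17.3 points above it in control cells. The excess in control cells turned negative with only peaks of a score of 100 or more (-0.803 and -14.8 points, from 6 and 7 peaks) and with lists of equal length (-23.0 and -17.3 points, from 5 and 4 peaks). In induced cells it was 9.45 and 52.9 points with that score limit, from 10 and 6 peaks. With lists of equal length it was 47.3 and 31.3 points in induced cells. With all peaks, the difference between conditions was 20.5 points, with the libraries separated by condition (exact two-sided permutation p = 0.333). It was 30.8 points in replicate 1 and 10.2 in replicate 2. The covered share is that of the whole stretch, long gaps included. At 20 to 25 kb from the dBigH1 midpoints, H1 of the matching list covered more. It covered 27.0% and 30.0% there in induced and 37.3% and 29.4% in control cells. Against this local level the excess of midpoints was smaller in every library, and small in the first control library.

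Long gaps were where dBigH1 peaks were fewer than the length of those gaps would give. Gaps of 20 kb or more, a limit set after the values were seen, held 24.5% and 34.5% of dBigH1 midpoints of induced cells but 66.6% and 65.4% of the bases. In control cells they held 45.0% and 50% of midpoints and 59.5% and 63.3% of the bases. The ratio of the share of peaks to the share of bases was 0.368 and 0.529 in induced and 0.756 and 0.790 in control cells. Gaps under 20 kb held 10.2% and 18.2% of induced midpoints and 15.0% and 11.9% of control midpoints, against 14.9 to 17.0% of the bases. Their ratios were 0.663 and 1.22 in induced and 0.884 and 0.747 in control cells. The 4 libraries thus differed mostly in how their peaks were divided between H1 peaks and long gaps.

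**Figure D3:**
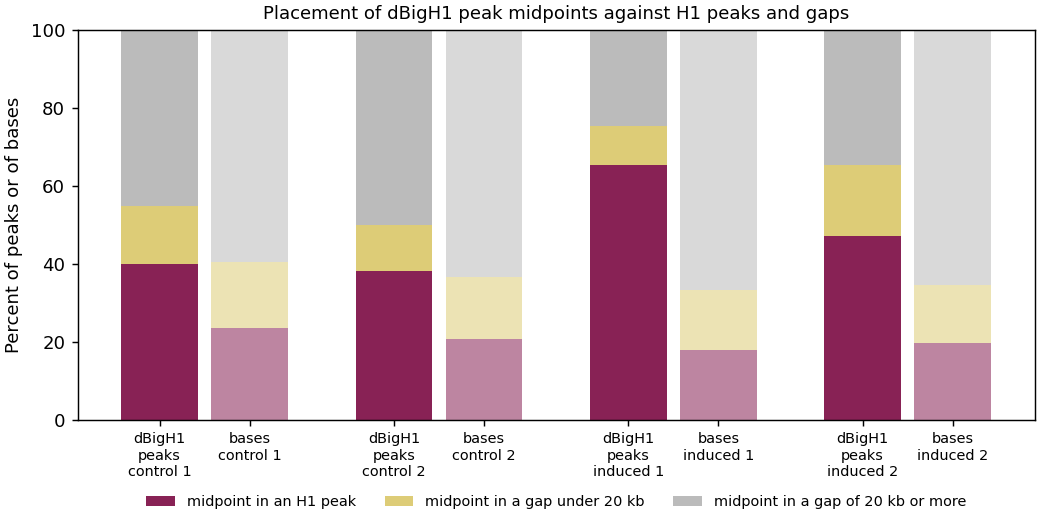
Percent of dBigH1 peak midpoints (solid bars) and of bases of the stretch (pale bars) that lay in an H1 peak of the matching list, in a gap under 20 kb between H1 peaks, or in a gap of 20 kb or more, for each library. Midpoints in H1 peaks made up 65.3% and 47.3% in induced and 40.0% and 38.1% in control cells, against 18.0 to 23.5% of the bases.

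Where dBigH1 and H1 overlapped, the dBigH1 peak was mostly nested in the H1 peak. It lay wholly inside 1 H1 peak in 24 of 32 and 17 of 30 overlapping cases in induced cells and in 7 of 8 and 16 of 17 in control cells, and no dBigH1 peak enclosed a whole H1 peak. Peaks that did not overlap H1 lay at a median of 7441 and 4770 bp from the nearest H1 peak in induced cells and 9301 and 16094 bp in control cells. The farthest lay 162396 and 61738 bp away in induced and 85505 and 134315 bp in control cells. Of the H1 peaks, 15.0% and 12.4% carried a dBigH1 peak in induced cells and 3.14% and 6.37% in control cells. These shares rise with the number of dBigH1 peaks, on which the stretch was chosen, so nothing is read from their contrast. H1 peaks that carried a dBigH1 peak had higher median scores than the others of the same list. Scores were 159 against 96.4 and 172 against 114 in induced cells, and 233 against 131 and 243 against 119 in control cells. Except in the first control list, they were also wider. Median widths were 4517 against 3285 and 5684 against 3402 bp in induced cells, and 3223 against 3734 and 6224 against 3529 bp in control cells. The part of width in this was not tested.

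dBigH1 peaks of induced cells overlapped H1 peaks of control cells to a like extent. The first induced library overlapped the 2 control H1 lists in 73.5% and 59.2% of its peaks and the 2 induced H1 lists in 65.3% and 55.1%. The second overlapped the control H1 lists in 56.4% and 52.7% and the induced ones in 50.9% and 54.5%. Control dBigH1 peaks overlapped the control H1 lists in 35.0 to 40.5% and the induced H1 lists in 26.2 to 35.0% of cases. Around the midpoint of induced dBigH1 peaks, H1 peaks of the same replicate covered 63.3% and 48.4% of the bases within 1 kb in induced cells, and 27.0% and 30.0% at 20 to 25 kb. Around control dBigH1 peaks, H1 of control cells covered 38.4% and 36.6% within 1 kb and 37.3% and 29.4% at 20 to 25 kb. The rise toward the midpoint was thus larger around induced peaks in both replicates.

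**Figure D4:**
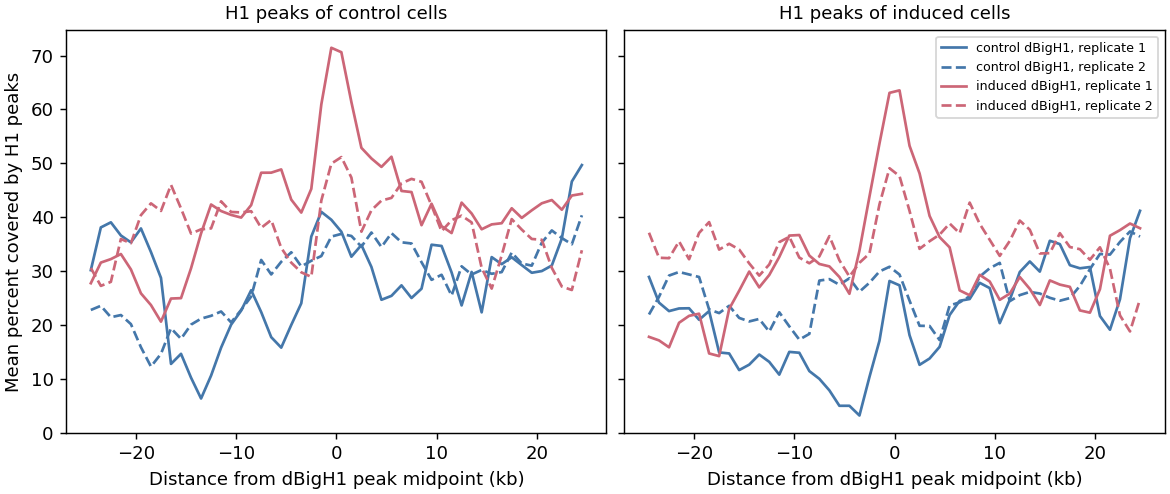
Mean percent of each 1 kb step covered by H1 peaks of control cells (left) and of induced cells (right), by distance in kb from the midpoint of the dBigH1 peaks of each library, with H1 taken from the same replicate number. Around induced dBigH1 peaks (red) the cover by H1 of induced cells within 1 kb was 63.3% and 48.4%. Around control dBigH1 peaks (blue), means rest on 20 and 42 peaks and fluctuate more.

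Merging the 4 dBigH1 lists gave 129 regions here. Both induced libraries and no control library held 12 of them (9.30%, against 2.45% of all 1263 regions of the series), and both control libraries and no induced library held 8 (6.20%, against 27.2%). No region was held by all 4 libraries (0.317% in the series), and 3 libraries held 4. Of the rest, 97 were held by a single library and 8 by 1 library of each condition. Since the stretch was chosen on induced dBigH1 peaks, nothing is read from these shares. With only peaks of a score of 100 or more, no region was held by both induced libraries alone and 3 by both control libraries alone. Single regions were not tested.

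The 12 regions of induced cells were 2.57 to 9.45 kb wide. The first by mean rank, 3L 3589910 to 3593908, had scores of 97.8 and 126, and 96.5% and 95.4% of it lay under H1 peaks of induced cells. In control cells 0% and 96.1% of it did. The next, 3L 3004660 to 3009121 (scores 101 and 99.2), was covered by H1 to 85.4% in the first induced library and not at all in the other 3. Then came 3L 6092030 to 6094596 (83.3 and 92.5), covered by H1 to 60.2% or more in all 4 H1 lists, and 3L 5436093 to 5439516 (85.1 and 86.8), covered fully in 3 of them. Its neighbour 3L 5439527 to 5444317 (50.4 and 56.6), covered fully in the same 3 lists, began directly after it. Besides 3L 6092030 to 6094596, only 3L 4049269 to 4052281 (64.5 and 56.0) among the 12 overlapped H1 in every list.

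The remaining regions of induced cells were more varied. 3L 4521724 to 4527222 (68.8 and 88.3) and 3L 3510905 to 3514823 (59.9 and 60.3) were covered by H1 to 86.3% or more in both induced lists, and each was covered in only 1 control list. 3L 2079083 to 2087199 (105 and 65.3) was covered to 27.8% and 68.3% in induced cells. 3L 5958678 to 5962397 (103 and 71.0) and 3L 5942437 to 5951882 (73.6 and 67.8) overlapped H1 in 1 list of each condition. 3L 3668734 to 3675493 (56.9 and 94.6) was the one region free of H1 in all 4 lists. Its nearest H1 peaks were 2.52 and 2.54 kb away in control and 22.2 and 22.3 kb away in induced cells. Of the 12 regions, 11 overlapped H1 of either induced library and 8 of both, and 10 overlapped H1 of either control library and 2 of both.

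The 8 regions of control cells differed in this respect. None overlapped an H1 peak of control cells (0 of 8, 95% interval 0 to 36.9%), and 1 overlapped an H1 peak of 1 induced library. Outside the stretch, 22 of 336 such regions (6.55%) overlapped H1 of control cells and 25 (7.44%) H1 of induced cells, and 14 of 19 regions of both induced libraries alone (73.7%) overlapped H1 of induced cells. The contrast between the 2 classes was thus also present in the rest of the series. The region that overlapped H1, 3L 5053794 to 5062265 (scores 74.4 and 73.8), was 8.47 kb wide and lay 1.41 and 1.43 kb from H1 of control cells. The lowest mean rank was that of 3L 4622998 to 4625427 (431 and 438), which lay 5.15 and 4.12 kb from H1 of control cells. The next, at 3L 4238966 to 4241511 (234 and 555), lay 21.8 and 21.8 kb from it. 3L 5546392 to 5548292 (169 and 107) lay 0.667 and 0.683 kb from H1 of control cells and 19.8 and 16.3 kb from H1 of induced cells. Scores were 136 and 72.6 at 3L 6545639 to 6547949 and 65.7 and 83.2 at 3L 2850963 to 2853791. They were 58.6 and 91.7 at 3L 3790801 to 3792035, with 81.9 and 62.4 at 3L 5000250 to 5010295. These 4 regions lay 10.2 to 37.7 kb from H1 of control cells.

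**Figure D5:**
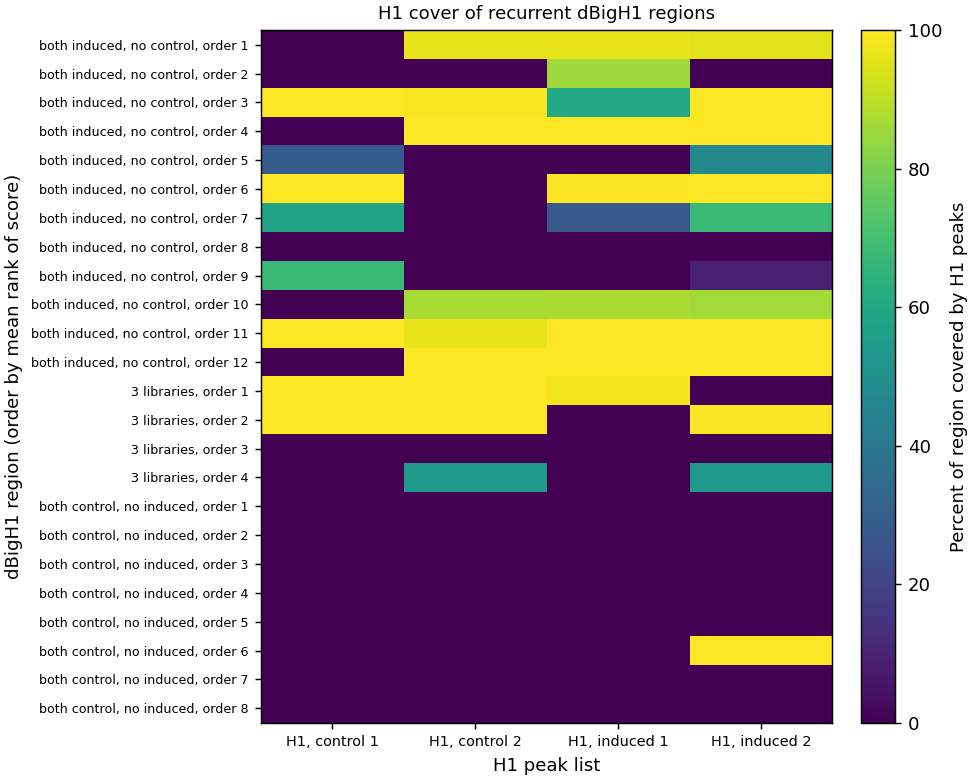
Percent of each recurrent dBigH1 region covered by H1 peaks (colour, 0 to 100) in the 4 H1 lists, with regions ordered by the mean rank of their score within each class. Of the 12 regions of both induced libraries, 11 were covered in part by H1 of at least 1 induced library, and of the 8 regions of both control libraries, 1 was.

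Of the 4 regions held by 3 libraries, 3L 5462063 to 5467167, 3L 6109854 to 6114601 and 3L 5382334 to 5389246 were each held by both induced libraries and 1 control library. The region at 3L 3482927 to 3492116 was held by both control libraries and the first induced one. 3L 5462063 to 5467167 (67.2 in the second control library, 87.2 and 87.2 in induced cells) was covered fully by H1 of both control libraries. 3L 5382334 to 5389246 (50.5 in the first control library, 137 and 58.1 in induced cells) touched no H1 peak in any list.

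The dBigH1 peaks of control cells that recurred in the other replicate were nearly all off H1, and those of induced cells were mostly on it. In control cells 9 of 20 and 9 of 42 dBigH1 peaks overlapped a peak of the other replicate, and of these 0 and 1 overlapped H1. Of the control peaks that did not recur, 8 of 11 and 16 of 33 overlapped H1. In induced cells 15 of 49 and 16 of 55 peaks recurred, and of these 9 and 11 overlapped H1. Of the induced peaks that did not recur, 23 of 34 and 19 of 39 overlapped H1. Recurring peaks had higher median scores than the others in each list, at 81.9 against 64.4 and 83.2 against 65.9 in control and 83.3 against 68.7 and 69.8 against 67.2 in induced cells. The part of score in these shares was not tested. The peaks that recurred made up 45.0% and 21.4% of control and 30.6% and 29.1% of induced members. Outside the stretch recurrence was 61.3% and 52.4% in control and 20.4% and 16.4% in induced lists.

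H1 itself was compared between conditions. The 287 and 251 H1 peaks of control and 233 and 233 of induced cells gave a log2 ratio of -0.20 (-0.30 in replicate 1 and -0.11 in replicate 2), and each induced library lay below each control library (exact two-sided permutation p = 0.333, the smallest possible). Covered length was 1172 and 1038 kb in control and 901 and 987 kb in induced cells, with a log2 ratio of -0.23 that was -0.38 in replicate 1 and -0.07 in replicate 2 (exact two-sided permutation p = 0.333). The median width did not separate the conditions (log2 ratio -0.06, exact two-sided permutation p = 0.667). Nor did the share of each H1 list that lay in this stretch, at 7.52% and 4.95% in control and 6.57% and 4.50% in induced cells, a difference of -0.702 points (exact two-sided permutation p = 0.667). Joining H1 peaks closer than 1000 bp left a log2 ratio of peak number of -0.06, and the conditions then overlapped. With lists of equal length they overlapped in both peak number (log2 ratio -0.16) and covered length (-0.20), each with an exact two-sided permutation p of 0.667.

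Single windows differed more. Every induced H1 library had fewer peaks than every control library in 7 of the 50 windows (7.18% over all windows of the large arms and X), and more in 1 (2.70% over those windows). Windows without H1 peaks, which cannot separate, count in these percentages, and H1 peak density was not matched. The largest difference was at 4.6 to 4.7 Mb, with 13 and 11 H1 peaks against 4 and 6. The window from 5.5 to 5.6 Mb held 9 and 9 against 3 and 5, the window from 3.6 to 3.7 Mb held 8 and 5 against 3 and 2, and the window from 2.2 to 2.3 Mb held 9 and 2 against 0 and 0. In the same 4 windows dBigH1 peaks numbered 1 and 5 against 2 and 0, 1 and 3 against 1 and 2, 1 and 0 against 2 and 3, and 0 and 1 against 1 and 1. Only the window from 3.6 to 3.7 Mb had fewer H1 and more dBigH1 peaks in every induced library. Across the 50 windows, the change in H1 cover and the change in dBigH1 cover had a Pearson r of -0.19, too weak in such sparse counts to read a relation from.

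Merging the 4 H1 lists gave 342 regions, of which 92 were held by all 4 libraries (26.9%, against 21.7% of the 6653 H1 regions of the series). Both control libraries and no induced library held 18 (5.26%, 95% interval 3.15 to 8.19, against 3.44%), and both induced libraries and no control library held 10 (2.92%, 1.41 to 5.31, against 3.07%). Both shares were near those of the series. The first region of control cells by mean rank was 3L 4765839 to 4773858 (scores 469 and 640), whose nearest H1 peaks in induced cells were 55.6 and 56.8 kb away. The second, 3L 3678015 to 3685245 (355 and 594), lay 12.4 and 31.5 kb from H1 of induced cells and overlapped a dBigH1 peak of 1 induced library. 3L 4671487 to 4680347 (242 and 392) lay 26.1 and 2.30 kb away. By contrast, 3L 4493294 to 4501241 (592 and 376) lay 0.023 and 0.097 kb from H1 peaks of induced cells, and 3L 3705248 to 3714707 (413 and 260) lay 0.476 and 4.75 kb away. Of the 18, 3 lay more than 10 kb from H1 in both induced lists and 3 lay within 1 kb of it in both.

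The leading regions of induced cells alone ranked lower than those of control cells alone. The 10 lay at a median of 1390 bp from the nearest H1 peak of the other condition, against 2236 bp for the 18. Their largest such distance was 9715 bp, against 55615 bp, and 2 of the 10 lay within 1 kb of H1 in both control lists. The first, 3L 3865400 to 3872135 (129 and 147), lay 0.077 and 0.179 kb from H1 of control cells. 3L 5640222 to 5642703 (143 and 103) lay 11.5 and 9.72 kb away, and 3L 6120575 to 6123133 (206 and 87.9) lay 0.227 and 0.261 kb away. None of the 10 lay more than 10 kb from H1 in both control lists. Regions held by all 4 H1 libraries were led by 3L 2069681 to 2076279 (596 and 362 in control, 468 and 543 in induced cells). Second was 3L 5422893 to 5427671 (355 and 492, 263 and 437), followed by 3L 5520573 to 5530061 (729 and 280, 244 and 696). The next 7, in order, began at 3L 3281777, 4583200, 4049209, 6144911, 3269049, 5255895 and 2897362. Of these 10, 8 carried a dBigH1 peak of at least 1 induced library, and 1 of them also of a control library. Over all 92, 25 carried a dBigH1 peak of induced cells (27.2%) and 11 one of control cells (12.0%). Among the 1349 such H1 regions elsewhere, 105 (7.78%) and 133 (9.86%) did. The control share was near that elsewhere, and nothing is read from the induced share, since the stretch was chosen for its induced dBigH1 peaks.

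Set beside the stretch of 2L from 14 to 19 Mb, which also gathers dBigH1 peaks of induced cells, 3L from 2 to 7 Mb carried fewer H1 peaks per Mb. The values were 57.4 and 50.2 in control and 46.6 and 46.6 in induced cells here, against 91.0 and 96.4 and 83.4 and 85.4 there. Midpoints of dBigH1 peaks of induced cells lay in H1 peaks 3.62 and 2.39 times as often as the covered share here, and 1.71 and 1.64 times there. In control cells these ratios were 1.70 and 1.83 here and 1.14 and 1.36 there. H1 of induced cells covered 18.0% and 19.7% of the bases here and 28.0% and 32.8% there. The shares of induced midpoints themselves overlapped, at 65.3% and 47.3% here and 47.8% and 53.7% there. On the rest of 3L, where H1 covered 6.78 and 11.0% of the bases in induced cells, the ratios were 8.65 and 5.55 for induced and 0.878 and 1.64 for control dBigH1 peaks, from 29 and 31 and from 78 and 85 peaks. These differences between stretches were not tested. dBigH1 peaks of induced cells numbered 9.80 and 11.0 per Mb here and 9.20 and 13.4 per Mb on the 2L stretch.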

How the data were processed

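Peak lists of 8 immunoprecipitated libraries were used, and the 4 inputs were left out. FastQC, Bowtie 0.12.5, MACS 1.4.2 and build dm3 are named per the submitters' processing notes. Settings and the control used for calling are not given in the sources used here. The deposited score of each peak is the authors' value. In peak files of this MACS version it is -10 times log10 of the caller's p-value, so the lowest score, 50, stands for 1e-05. Scores were used within a list only.

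From these lists, counts, widths, covered lengths, overlaps (1 bp or more) and gaps were computed in Python 3.11.15 (NumPy 2.4.6, SciPy 1.17.1), with code tested on simulated data. Regions are peaks of the 4 libraries of an antibody merged where they overlap. Conditions were compared by exact two-sided permutation over libraries (6 arrangements). The stretch, measures and lists were chosen with earlier results of these data known. Regions named are all dBigH1 regions of both induced libraries alone or of 3 or more libraries, up to 10 of both control libraries alone, up to 10 H1 regions of all 4 libraries and up to 5 of each condition alone, by mean rank of the score. Also named are the densest and emptiest H1 windows, the windows with most induced dBigH1 peaks and the 5 widest gaps. Other windows and leading peaks were named after their values were seen. No genome of build dm3 was used, so no gene or sequence is given. Alternatives were a score of 100 or more, joined peaks, peaks wholly inside the stretch, stricter overlap, merged H1 lists, shifted windows, each replicate left out, a replicate block and, chosen after seeing the data, lists of equal length.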

Additional observations from a re-analysis of the deposited data

How the results depend on the processing

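No comparison of 2 libraries with 2 could pass 0.05, so only size and direction can be compared across settings. Tested measures were judged by direction alone, counts by a factor of 1.5, and dBigH1 peak number and covered length by 1 SD between replicates. By these rules 19 of 98 alternative values moved, 78 did not, and 1 changed direction. Some of the 78 differ much in size: the log2 ratio of H1 peak number lay between -0.34 and -0.06 and that of H1 covered length between -0.41 and -0.07. That of dBigH1 peak number fell from 0.84 to 0.26 with a score of 100 or more. Control lists then held 6 and 7 such peaks and induced lists 10 and 6, so the conditions overlapped. The change in direction was in the log2 ratio of H1 median width, which was -0.16 without replicate 2 and 0.032 without replicate 1. Between condition means, dBigH1 overlapped H1 more often in induced cells in every setting, by 14.1 to 60.9 points. The excess of midpoints over cover was higher by 10.2 to 59.4 points. Single replicates could differ less. With a score of 100 or more, the first induced library lay only slightly above the first control library, which had 16.7% overlap. The second replicate gave 66.7% of 6 induced against 0% of 7 control peaks, so that mean difference rests mostly on it. The upper ends of both ranges come from lists of equal length, which leave 5 and 4 control peaks. That setting gave log2 ratios of 3.41 and 3.99 for dBigH1 peak number and covered length, and 2 dBigH1 regions of control cells alone. A score of 100 or more left 0 dBigH1 regions of induced and 3 of control cells alone, 42 H1 regions of all 4 libraries, and 2 windows with a dBigH1 peak in both induced libraries. Joining peaks gave 8 H1 regions of control and 6 of induced cells alone. With 1 library against 1, counts were larger by construction: 48 to 51 and 19 to 38 dBigH1 regions of induced and control cells alone, 152 to 155 shared H1 regions, and 81 to 116 and 57 to 65 H1 regions of control and induced cells alone. For the other values that moved, the cause was not tested. The replicate block left values as they were by construction (-0.20 for H1 peak number, 19.7 points for the overlap), with an exact sign-flip p of 0.5 for both. Only the number pairs these samples. Depth is unknown, so a missing peak does not show that the protein was absent.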
